A study of Homo sapiens with 12 samples.

Results

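The large subunit of the cytosolic ribosome, the 60S subunit, is built from ribosomal RNA and the proteins of the RPL genes. The 44 genes described here, RPL3 to RPL41 and the stalk genes RPLP0, RPLP1 and RPLP2, were taken from the deposited table of 58884 genes by exact symbol. Pseudogenes and paralogues with other symbols were left out. All 44 were above the filter on low counts and were tested among 16537 genes. Expression was measured by RNA sequencing in 4 groups of 3 libraries. HCC-LM3 knockout cells had been infected with a guide RNA against METTL5, and HCC-LM3 wild-type cells were untreated. Huh-7 knockout cells had been infected with the METTL5 guide in the same way, and Huh-7 wild-type cells had received no treatment. Both lines come from human liver cancer. HCC-LM3 was selected for its spread to other organs, and Huh-7 is known for its secretion of plasma proteins. No non-targeting guide, clonal origin or batch is given in the labels, so losing METTL5 cannot be told apart from guide infection itself or from clonal differences. Replicates carry numbers only, with no word on separate cultures, so a p-value here reflects variation among these libraries, which may be technical.

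METTL5, with its partner TRMT112, methylates an adenosine of 18S ribosomal RNA. Most proteins of the large subunit are present as a single copy in each ribosome, and they are carried into the nucleolus and joined to the large-subunit RNAs with the help of assembly factors. Their mRNAs belong to the TOP class, which begins with a cytosine and a run of pyrimidines and is translated under the control of mTORC1 and the binding protein LARP1. Liver cancer cells, like other dividing cells, devote much of their transcription to these genes.

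The RefSeq table of promoters held a start site for 37 of the 44 genes. RPL5, RPL7, RPL8, RPL23, RPL23A, RPL30 and RPL37 were not matched. The following stretches of 30 bases, from RefSeq on GRCh38.p14, run 5′ to 3′ on the coding strand with 15 bases before the listed start. They are shown because these genes stood at the ends of the comparisons given later, and capitals mark the longest run of C and T that comes within 3 bases of the start. RPL35 lies at chr9:124861943-124861972 on the minus strand, RPL35A at chr3:197950175-197950204 on the plus strand and RPLP0 at chr12:120201097-120201126 on the minus strand, and all are from the upper end of the Huh-7 knockout comparison. RPL14 at chr3:40457324-40457353 on the plus strand, RPL17 at chr18:49492451-49492480 on the minus strand and RPL4 at chr15:66504841-66504870 on the minus strand are from its lower end. RPL28, at chr19:55385917-55385946 on the plus strand, was near the top in HCC-LM3, and RPL26, at chr17:8383179-8383208 on the minus strand, was at the top between the wild-type lines.
RPL35: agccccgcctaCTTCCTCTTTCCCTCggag
RPL35A: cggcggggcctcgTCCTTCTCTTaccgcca
RPLP0: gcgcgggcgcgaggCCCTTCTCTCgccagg
RPL14: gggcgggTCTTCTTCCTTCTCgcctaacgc
RPL17: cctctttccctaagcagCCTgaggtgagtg
RPL4: tacagcgggagtggTaagcacttccttttc
RPL28: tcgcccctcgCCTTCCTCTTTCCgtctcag
RPL26: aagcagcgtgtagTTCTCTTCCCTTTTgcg

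A run of at least 7 such bases was present in 28 of 37 large-subunit genes (75.7%), in 22 of 25 small-subunit genes (88.0%) and in 4413 of 27305 genes of the whole table (16.2%). The run was 15 bases in RPL35, 14 in RPL14 and RPL26, 13 in RPL28 and 10 in RPL35A and RPLP0. It was 3 bases in RPL17 and 1 base in RPL4 at the listed start. A missing run says only that these letters are not in this window. Across the 37 genes, run length and the knockout log2 fold change had a Pearson r of −0.085 in HCC-LM3 and 0.21 in Huh-7. These values are descriptions across genes that share libraries.

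The libraries held between 17495280 and 26415554 counts. METTL5 was at 0 counts in all 6 knockout libraries, against 268, 327 and 325 in HCC-LM3 wild type and 237, 258 and 169 in Huh-7 wild type. HCC-LM3 wild-type replicate 1 stood apart, with a chi-square per degree of freedom over genes of 34.97 and 28.9 against replicates 2 and 3, which gave 4.01 against each other. Summed hepatocyte markers reached 12272 to 12405 TPM, the authors' abundance value scaled for transcript length and depth, in Huh-7 knockout and 14158 to 16219 in Huh-7 wild type. In HCC-LM3 the same 10 genes summed to 12.5 to 16.6 TPM in the knockout and 12.3 to 13.9 in wild type, with 9 of them under 1 TPM and APOB and TTR at 0 in both groups, so the defining markers of hepatocytes were at or near 0 in that line. Counts in Huh-7 knockout fell on genes with shorter transcripts, with a mean transcript length over counts of 1187 ± 6.89 bases against 1736 ± 40.9 in wild type (SD, n = 3 each). The Huh-7 knockout libraries detected 17752 to 18322 genes, against 22479 to 23472 in wild type. Summed AFP and GPC3 were 245 to 261 TPM in Huh-7 knockout and 1559 to 1799 in wild type, and histone mRNAs took 0.362% to 0.384% of counts in the knockout, against 0.240% to 0.265% in wild type. Summed fibroblast markers were at most 19.97 TPM, summed endothelial markers at most 2.63 TPM and summed immune markers at most 55.6 TPM in any library, with the leukocyte gene PTPRC at 0 in HCC-LM3 and in Huh-7 knockout.

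The first question was how much of each library the large-subunit genes occupied. In Huh-7 knockout they made up 10.2%, 9.99% and 9.84% of all counts, and in Huh-7 wild type 4.85%, 4.91% and 4.46%. The groups did not overlap, and the mean share was 2.11 times as high in the knockout. In HCC-LM3 knockout the shares were 5.54%, 5.56% and 5.80%, and in HCC-LM3 wild type 5.80%, 5.05% and 5.12%. These groups overlapped, since wild-type replicate 1 lay at the level of the highest knockout library. The two-sided exact permutation test gave p = 0.1 in Huh-7, the smallest that 3 against 3 libraries allow, and p = 0.3 in HCC-LM3. By TPM, which divides by transcript length, the share was 15.2% ± 0.189 in Huh-7 knockout and 10.04% ± 0.437 in Huh-7 wild type, or 1.52 times as high (SD, n = 3 each). In HCC-LM3 the TPM share was 14.02% ± 0.183 in the knockout and 13.73% ± 0.634 in wild type, and these groups overlapped. By TPM the Huh-7 wild-type libraries were thus the lowest, and Huh-7 knockout was closer to both HCC-LM3 groups. Between the wild-type lines the mean count share was 5.32% in HCC-LM3 and 4.74% in Huh-7, with p = 0.1 by the same exact test. The TPM share was 1.37 times as high in wild-type HCC-LM3 as in wild-type Huh-7, without overlap (p = 0.1, exact test). In bulk samples, fewer cells of a kind and less RNA per cell cannot be told apart.

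**Figure D1:**
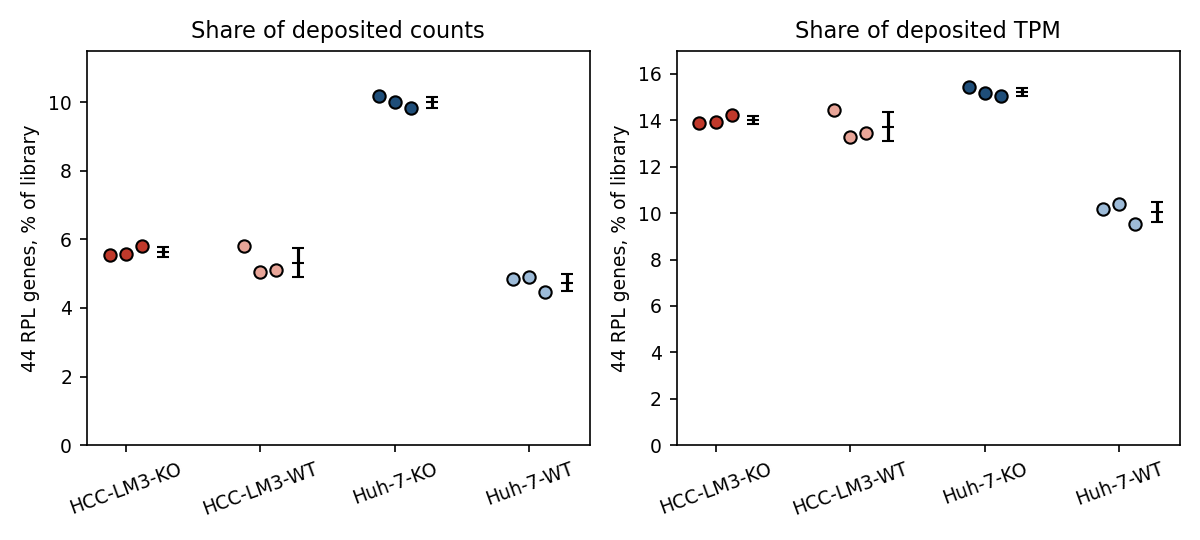
Share of each library taken by the 44 large-subunit genes, in percent of deposited counts (left) and of deposited TPM (right). Points are libraries, with the mean and SD beside them. The Huh-7 knockout libraries, at 9.84% to 10.2% of counts, lie above the other 9. By TPM the Huh-7 wild-type libraries, at 9.55% to 10.4%, lie below all others.

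The comparison of Huh-7 knockout with wild type asked what loss of METTL5 goes with in that line. Levels are given as CPM, which are counts brought to a common library size with trimmed-mean (TMM) factors. Genes are called where edgeR's quasi-likelihood test gave an adjusted p (Benjamini-Hochberg, over all tested genes) under 0.05. Of the 44 genes, 43 rose and 0 fell, while 31.7% of all tested genes rose and 43.2% fell. At an unadjusted p under 0.05 the counts were also 43 and 0, and DESeq2 called 44 higher and 0 lower. The median log2 fold change of the 44 was 2.05, or 4.15-fold, and that of all genes was −0.30. Scaled by library totals, without TMM factors, the medians were 0.94 and −1.40, and then 38 of the genes rose and RPL5, RPL6 and RPL7 fell. Over all 16537 tested genes, 1993 rose and 10795 fell with that scaling. Such a change of scaling shifts all genes nearly alike. The distance between the medians was therefore bound to stay, at 2.35 with TMM and 2.34 with totals. With offsets for transcript GC content and length, which can change this distance, all 44 rose. Their median was then 1.69, against 0.00 for all genes. The 771 tested genes under 1000 bases and with a mean of at least 100 CPM over all 12 libraries had a median of 1.47. The 41 large-subunit genes among them had a median of 2.08. That mean includes the Huh-7 knockout libraries, so genes high there pass it more easily. The 771 genes also include the 41, and they are no independent background. The shorter transcripts and the lower AFP and GPC3 levels moved with the rise of the 44 genes, and their part in it was not tested.

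**Figure D2:**
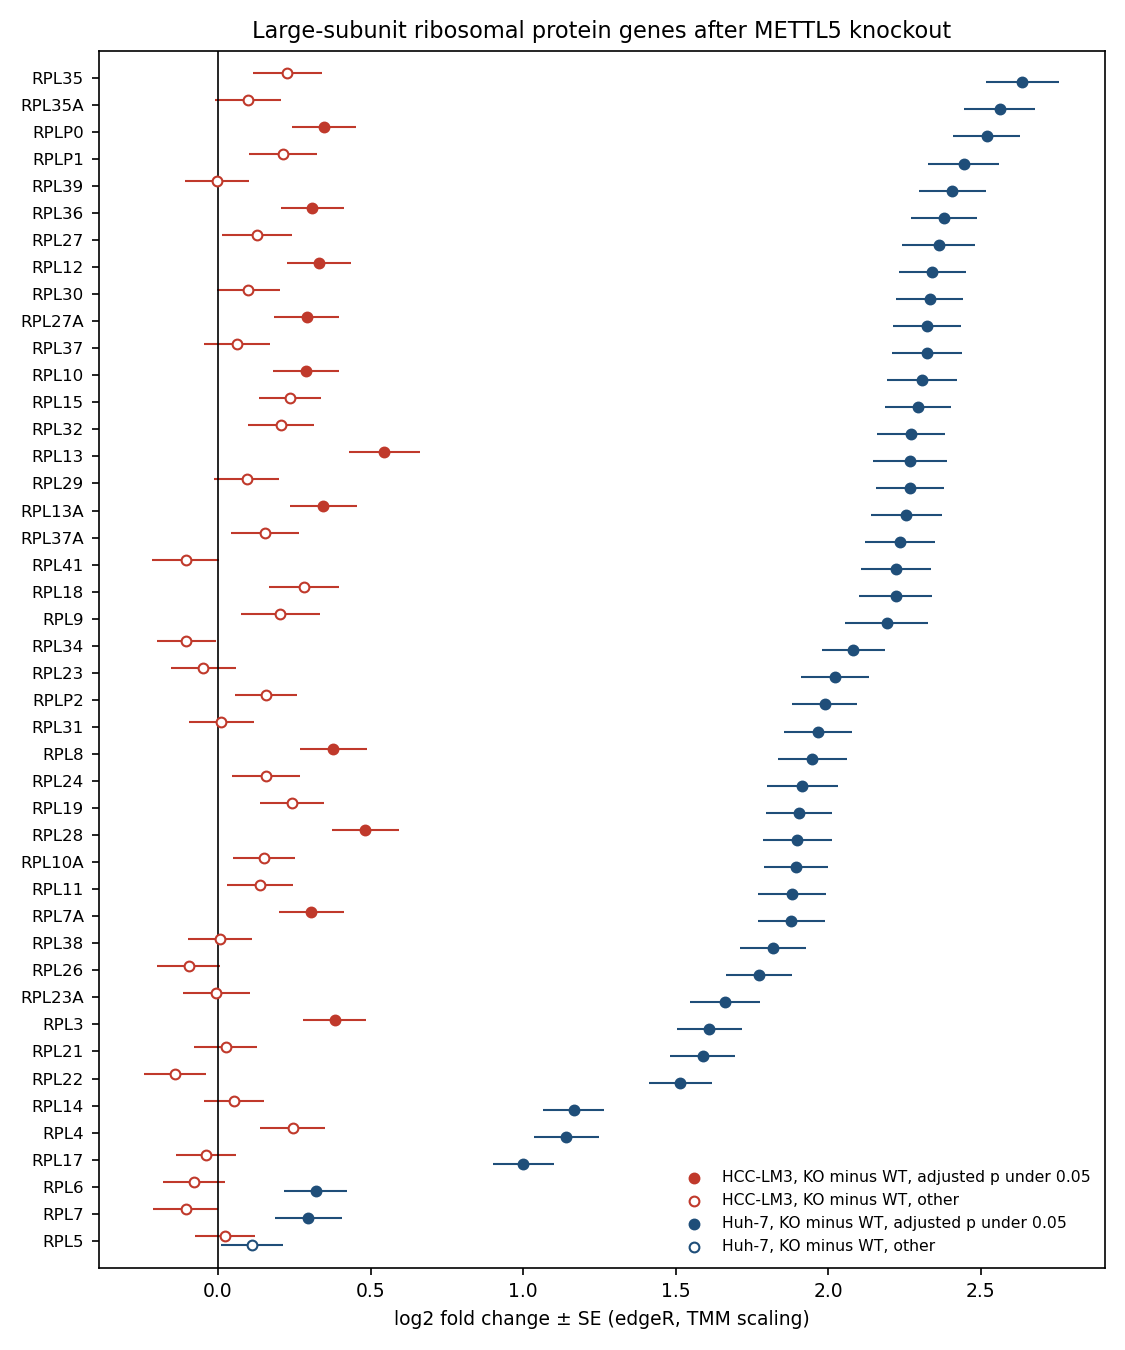
Log2 fold change, knockout minus wild type, with its SE, for the 44 genes in HCC-LM3 (red) and Huh-7 (blue), sorted by the Huh-7 value. Filled points have an adjusted p under 0.05. Huh-7 values run from 0.11 for RPL5 to 2.64 for RPL35, and HCC-LM3 values from −0.14 for RPL22 to 0.55 for RPL13. Scaling by library totals made the Huh-7 values of RPL5, RPL6, RPL7 and RPL17 negative.

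The ribosomal stalk recruits the GTPases that drive elongation. RPLP0, RPLP1 and RPL12 had Huh-7 values above the median of the 44 genes with TMM scaling, and RPLP2 was below it. RPLP0, the stalk base protein, had 23623, 23029 and 22221 CPM in Huh-7 knockout, against 4189, 3803 and 4020.1 in Huh-7 wild type (log2 fold change 2.52, SE 0.11, adjusted p = 2.11e-19, edgeR). Every knockout library was above every wild-type library. In HCC-LM3, RPLP0 had 4359.9, 4409 and 4530.2 CPM in the knockout, against 4020.0, 3221 and 3209 in wild type (0.35, SE 0.10, adjusted p = 0.0124, edgeR). The groups did not overlap there either, although wild-type replicate 1 was close to the knockout. Leaving out 1 library or another alternative ended the HCC-LM3 call in 5 of 21 settings, with adjusted p between 9.58e-07 and 0.0899 (edgeR and DESeq2). RPLP1, an acidic stalk protein, had log2 fold changes of 2.44 in Huh-7 and 0.21 in HCC-LM3, and RPLP2, its partner, of 1.99 in Huh-7 and 0.16 in HCC-LM3. RPL12, which binds the stalk base, had log2 fold changes of 2.34 in Huh-7 and 0.33 in HCC-LM3. All 4 stalk genes rose in Huh-7, and RPLP0 and RPL12 rose in HCC-LM3.

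The proteins around the exit tunnel, where the new chain leaves and chaperones dock, spanned most of the Huh-7 range. RPL35 had 10928, 10875 and 10136 CPM in Huh-7 knockout, against 1689.5, 1764 and 1686 in Huh-7 wild type (log2 fold change 2.64, SE 0.12, adjusted p = 4.75e-19, edgeR), a 6.22-fold difference. On this scale the knockout libraries were all far above the wild-type libraries. The log2 fold change of RPL35 was 1.52 by library totals and 1.485 with offsets for GC content and length. RPL17 had 336, 315 and 322 CPM in Huh-7 knockout, against 171, 174 and 142 in wild type (1.00, SE 0.10, adjusted p = 7.66e-11, edgeR). Its groups did not overlap, but with library totals alone its log2 fold change was −0.11 (adjusted p = 0.198, edgeR). RPL39, a small tunnel protein, changed by 2.41, RPL37 by 2.32, RPL31 by 1.97, RPL19 by 1.90, RPL26 by 1.77, RPL23A by 1.66 and RPL22 by 1.52. All 9 tunnel genes rose in Huh-7. In HCC-LM3 edgeR called 0 of them, with 1 at an unadjusted p under 0.05 and 1 called by DESeq2, and their log2 fold changes lay between −0.14 and 0.24. By library totals RPL22 and RPL26 fell there, by 0.29 and 0.25 (adjusted p = 0.0189 and 0.0382, edgeR).

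The particle of 5S RNA, RPL5 and RPL11 is delivered to the ribosome as a unit and, when free, binds the ubiquitin ligase MDM2. Its proteins differed in Huh-7. RPL11 had 1464, 1349 and 1349 CPM in Huh-7 knockout, against 395, 404 and 332 in wild type (log2 fold change 1.88, SE 0.11, adjusted p = 1.82e-16, edgeR). RPL5 had 176, 159 and 182 CPM in Huh-7 knockout, against 162, 177 and 141 in wild type, and the groups overlapped. Its log2 fold change was 0.11 (SE 0.10, adjusted p = 0.332, edgeR). Scaled by library totals RPL5 fell by 1.001 (adjusted p = 2.88e-09), and with offsets for GC content and length it rose by 0.59 (adjusted p = 6.45e-08, both edgeR), so its direction rested on the scaling. In HCC-LM3 neither RPL5, at 0.022, nor RPL11, at 0.14, passed edgeR's test, and neither passed at an unadjusted p under 0.05 or in DESeq2. With the offsets both rose in HCC-LM3, RPL5 by 0.20 (adjusted p = 0.0319) and RPL11 by 0.23 (adjusted p = 0.0399, both edgeR).

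Proteins of the peptidyl transferase centre and the tRNA sites ranged widely in Huh-7. RPL10, a late-joining protein near the tRNA path, changed by 2.31, RPL8 of the catalytic centre by 1.95, RPL10A of the mobile L1 stalk by 1.90 and RPL3, which reaches toward the catalytic centre, by 1.61. RPL4, which extends into the exit tunnel, had 2319, 2106 and 2252 CPM in Huh-7 knockout, against 1088, 1069 and 869.8 in wild type (log2 fold change 1.14, SE 0.11, adjusted p = 1.49e-11, edgeR). The groups did not overlap on this scale, and by library totals its value was 0.031 (adjusted p = 0.746, edgeR). In HCC-LM3, RPL3, RPL8 and RPL10 rose, with log2 fold changes of 0.38, 0.38 and 0.29, but the call for RPL10 was lost in 16 of 21 alternatives, with adjusted p up to 0.254 (edgeR and DESeq2).

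The 4 genes listed for bridges to the small subunit rose in Huh-7, by 2.33 for RPL30, 2.22 for RPL41, 2.02 for RPL23 and 1.92 for RPL24 on the log2 scale. In HCC-LM3 edgeR, DESeq2 and an unadjusted p under 0.05 in edgeR each called 0 of the 4, with values between −0.11 and 0.16. With the offsets RPL24 and RPL30 rose there, by 0.25 and 0.27 (adjusted p = 0.0481 and 0.0292), and by library totals RPL41 fell by 0.25 (adjusted p = 0.017, all edgeR). Among genes with roles described in inherited disease or outside the ribosome, RPL35A changed by 2.56 in Huh-7, with 2118, 1911 and 1823 CPM in the knockout, against 349, 341 and 302 in wild type. RPL35A and RPL27 are mutated in Diamond-Blackfan anaemia, and RPL27 changed by 2.36. RPL13A, known from a complex that silences interferon-induced mRNAs, changed by 2.26, RPL38, known in mice for the translation of Hox mRNAs, by 1.82, and RPL21, mutated in an inherited hair loss, by 1.59.

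RPL5, RPL6, RPL7, RPL17, RPL4 and RPL14 had the lowest Huh-7 changes. RPL6, a protein that bacterial ribosomes lack, had 373, 338 and 367 CPM in Huh-7 knockout, against 288, 325 and 250.1 in wild type (log2 fold change 0.32, SE 0.10, adjusted p = 0.00614, edgeR). RPL7, found in all domains of life, had 190.2, 151 and 183 CPM in Huh-7 knockout, against 141, 161 and 126 in wild type (0.30, SE 0.11, adjusted p = 0.0155, edgeR). The RPL6 groups did not overlap, whereas the RPL7 groups did. On library totals both fell, RPL6 by 0.79 and RPL7 by 0.81, and with offsets for GC content and length both rose, RPL6 by 0.34 and RPL7 by 1.00. Besides library totals, which reversed both, 5 of 21 alternatives lost the call for RPL7 and 2 that for RPL6. The adjusted p reached 0.197 for RPL7 and 0.126 for RPL6 (edgeR and DESeq2).

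**Figure D3:**
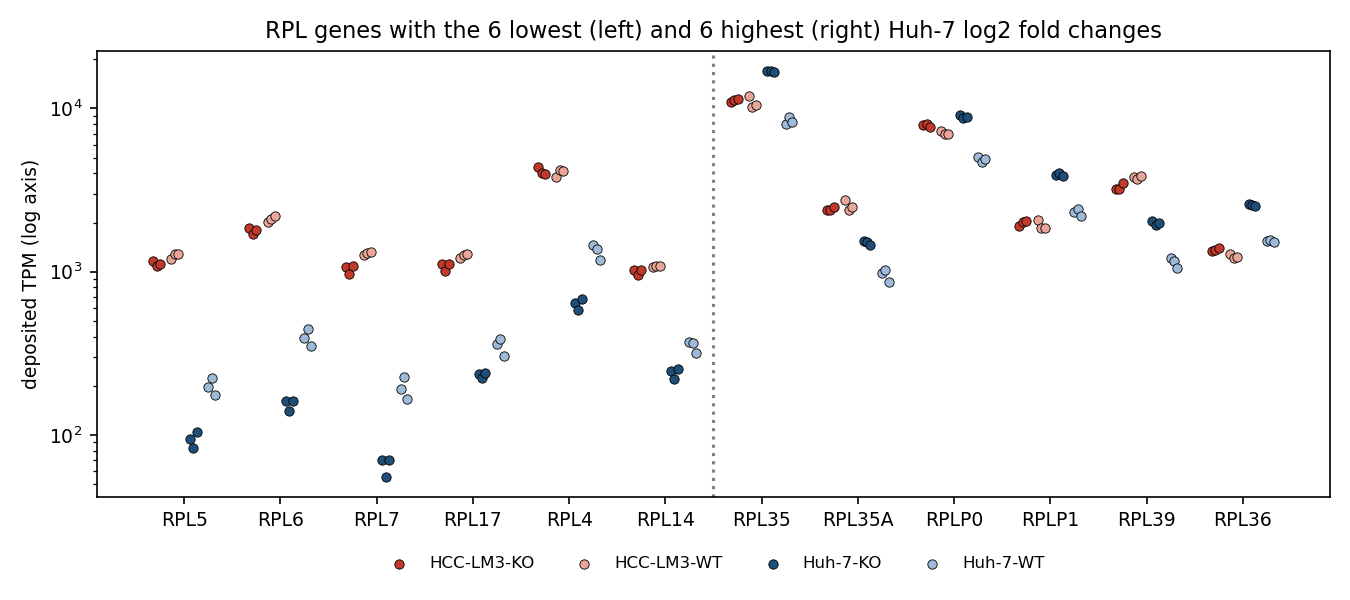
Deposited TPM per library, on a log axis, of the genes with the 6 lowest (left) and 6 highest (right) Huh-7 log2 fold changes. Within each line the knockout stands left of wild type. The 6 genes on the left have lower TPM in all Huh-7 knockout libraries than in all Huh-7 wild-type libraries, as with RPL7 at 65.2 against 195, although their log2 fold changes with TMM scaling are positive. Scaling by library totals turned those of RPL5, RPL6, RPL7 and RPL17 negative.

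Per transcript length the picture in Huh-7 was split. By deposited TPM, 30 genes were higher in all knockout than in all wild-type libraries and 7 were lower, while 5.46% of all tested genes were higher and 72.4% lower without overlap. The 7 were RPL4, RPL5, RPL6, RPL7, RPL14, RPL17 and RPL22. RPL7 stood at 70.3, 55.5 and 69.8 TPM in Huh-7 knockout, against 192, 225 and 167 in Huh-7 wild type. RPL4 stood at 645, 579.6 and 678 TPM in the knockout, against 1456, 1386 and 1184 in wild type. RPL35 stood at 16962, 16893 and 16776 TPM in the knockout, against 8003, 8831 and 8292 in wild type. RPL7 and RPL4 were thus lower, and RPL35 higher, in every knockout library.

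The spread of levels within the set was wider in Huh-7 knockout than in the other groups. RPL35 had the highest mean TPM in Huh-7 knockout, at 16877, and RPL7 the lowest, at 65.2, a ratio of 259. RPL41 overlapped with RPL35 there, at 17219, 16545 and 16579 TPM. In Huh-7 wild type RPL41 was highest at 11073 and RPL22 lowest at 146, a ratio of 75.9. In HCC-LM3 the order ran from RPL35 to RPL9 in both groups, from 11260 down to 406 TPM in the knockout and from 10856 down to 390.1 in wild type, with ratios of 27.7 and 27.8. The level of RPL9 is uncertain because of its pseudogenes, as given later. Most neighbours in the order of 44 did not differ beyond their spread in 3 of the groups, with 22 of 43 neighbouring pairs overlapping in HCC-LM3 knockout, 33 in HCC-LM3 wild type and 34 in Huh-7 wild type, against 19 in Huh-7 knockout.

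To set the genes against each other independently of library scaling, each level was expressed as log2(CPM + 1) minus the mean over the 44 genes in the same library. On this scale 21 genes were higher and 11 lower in Huh-7 knockout with no overlap. Over all tested genes the shares were 1.78% and 94.4%, but these follow from the shift of the mean of the 44. They are not a background for the 21 and 11. The range was −1.81 for RPL5 to 0.71 for RPL35, with RPL7 at −1.63, RPL6 at −1.60, RPL17 at −0.92, RPL4 at −0.77 and RPL14 at −0.76. The SD over replicates of a single gene had a median of 0.035 in Huh-7 knockout and 0.073 in Huh-7 wild type. With offsets for GC content and length the 6 low genes stayed below the mean of the 44, at −1.15 for RPL5, −0.74 for RPL7, −1.41 for RPL6, −0.51 for RPL17, −0.74 for RPL4 and −0.58 for RPL14. RPL3, at −0.97, RPL8, at −0.77, RPLP2, at −0.75, and RPL28, at −0.71, were also among the low genes with the offsets. Of the 44 relative levels in Huh-7, 10 whose groups had not overlapped changed sign with the offsets, 31 others moved by more than the spread between replicates and 3 moved by less. RPL35 was at −0.26 with the offsets and so changed sign, and RPL35A, at 0.64 without them, was at 1.44.

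In HCC-LM3, 11 of the 44 genes rose in the knockout and 0 fell, against 14.0% and 12.9% of all tested genes. At an unadjusted p under 0.05 the counts were 15 and 0, and DESeq2 called 14 and 0. RPL13, mutated in a skeletal dysplasia, had 1418, 1528 and 1775 CPM in HCC-LM3 knockout, against 1307, 1008 and 920.3 in wild type (log2 fold change 0.55, SE 0.12, adjusted p = 0.000695, edgeR). RPL28, a protein that bacteria lack, had 753, 786 and 812 CPM in the knockout, against 680.2, 498 and 504 in wild type (0.48, SE 0.11, adjusted p = 0.00127, edgeR). Both genes were higher in all 3 knockout libraries, and wild-type replicate 1 was the nearest to them. The others that rose were RPL3, RPL8, RPLP0, RPL13A, RPL12, RPL36, RPL7A, RPL27A and RPL10, between 0.29 and 0.38. Of 21 alternatives, the call was lost in 16 for RPL10, 14 for RPL27A, 10 for RPL7A, 8 for RPL36, 7 for RPL13A, 5 for RPLP0, 4 for RPL8 and RPL12 and 1 for RPL3, and in 0 for RPL13 and RPL28. The median over the 44 was 0.15, against 0.00 for all genes, and the lowest value was −0.14, for RPL22. The 771 tested genes under 1000 bases and with at least 100 CPM had a median of 0.19 in HCC-LM3. That of the 41 large-subunit genes among them was 0.14, so these did not stand above the set. The set includes the 41, and its CPM limit applies to a mean that covers the knockout libraries.

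The HCC-LM3 count rested on single libraries and on the scaling. Without wild-type replicate 1 it was 28, without wild-type replicate 2 it was 3, and without wild-type replicate 3 it was 2. Leaving out knockout replicate 1, 2 or 3 gave 4, 5 and 3. Scaled by library totals, 6 genes rose and 5 fell (RPL6, RPL22, RPL26, RPL34 and RPL41), and the median was 0.01. Over all 16537 tested genes, 1199 rose and 3423 fell with that scaling. By TPM 13 genes were higher and 19 lower without overlap, against 11.0% and 23.0% of all tested genes. Relative to the mean of the 44, 14 genes were higher and 16 lower in the knockout without overlap. Values lay between −0.30 for RPL22 and 0.40 for RPL13. Over all tested genes the shares were 10.7% and 20.8%, which also depend on the mean of the 44 and are no background here.

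The HCC-LM3 log2 fold changes were larger for genes with higher GC content and level. Across the 44 genes the log2 fold change and transcript GC content had a Pearson r of 0.687 in HCC-LM3 and 0.277 in Huh-7. For the log2 of the mean CPM over all libraries, r was 0.714 and 0.493. That mean includes the knockout libraries, so it is not independent of the change. With transcript length r was 0.251 in HCC-LM3 and −0.395 in Huh-7. The mean transcript GC content over counts was 54.5% ± 0.058 in HCC-LM3 knockout and 53.6% ± 0.348 in HCC-LM3 wild type, and 56.4% ± 0.090 in Huh-7 knockout and 55.6% ± 0.171 in Huh-7 wild type (SD, n = 3 each). With the offsets r with GC content was −0.356 in HCC-LM3 and −0.597 in Huh-7, and r with level was 0.0876 in HCC-LM3 and −0.145 in Huh-7. The offsets are fitted to GC content and length. The loss of a positive relation with GC content was therefore built in and does not test that relation. The HCC-LM3 offsets fit called 15 genes, of which 8 were among the 11. The log2 fold changes of the same gene in both lines, which come from separate libraries, had r of 0.416 over the 44 genes and 0.282 over 41 without RPL5, RPL6 and RPL7. All of these are correlations across genes of the same libraries, which are not independent replicates.

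**Figure D4:**
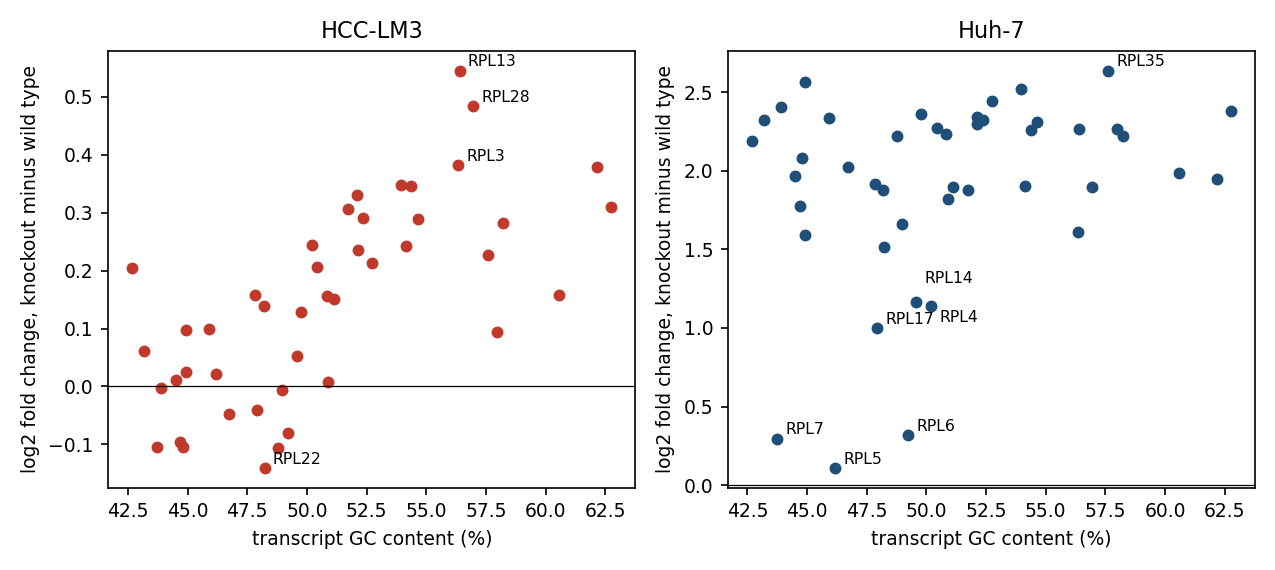
Log2 fold change, knockout minus wild type, against transcript GC content for the 44 genes in HCC-LM3 (left) and Huh-7 (right). In HCC-LM3 the values are higher at higher GC content (r = 0.687). With the GC and length offsets, which are themselves fitted to GC content, r was −0.356. In Huh-7 RPL5, RPL6 and RPL7 lie apart below 0.33. Scaling by library totals made those 3 Huh-7 values negative.

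The difference between the knockout effects was itself tested, with the effect in Huh-7 subtracted from that in HCC-LM3. It was negative and passed the test for 43 genes and positive for 0, against 23.9% and 37.7% of all tested genes, with a median of −1.93. At an unadjusted p under 0.05 the counts were 43 and 0 as well, and DESeq2 gave 44 and 0. RPL35A had the strongest difference, −2.46 (SE 0.16, adjusted p = 5.49e-15, edgeR), and RPL5 did not pass, at −0.09 (SE 0.14, adjusted p = 0.628, edgeR). By library totals 38 were negative and 3 positive, namely RPL5, RPL6 and RPL7. Over all 16537 tested genes, 1574 were negative and 9504 positive with that scaling.

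Wild-type HCC-LM3 and wild-type Huh-7 cells were compared to see how the lines differ without knockout. In HCC-LM3, 18 genes were higher and 18 lower, against 41.8% and 41.0% of all tested genes, so neither count was above the background. Scaling by library totals gave 26 higher and 11 lower, with a median of 0.51 for the 44 and 0.46 for all genes, against 0.09 and 0.03 with TMM. With totals, 8430 of all 16537 tested genes were higher and 5429 lower. RPL26, a tunnel protein, had 617, 522 and 539 CPM in HCC-LM3 wild type, against 125, 142 and 107 in Huh-7 wild type (log2 fold change 2.16, SE 0.11, adjusted p = 7.20e-19, edgeR). RPL31 differed by 2.11, RPL7 by 2.04, RPL5 by 1.92 and RPL6 by 1.51. RPL37A, a zinc-binding protein, had 465, 329 and 343 CPM in HCC-LM3 wild type, against 1358, 1339.8 and 1248 in Huh-7 wild type (−1.80, SE 0.11, adjusted p = 5.58e-16, edgeR). RPL18 differed by −1.70, RPL41 by −1.63, RPL32 by −1.498 and RPL15 by −1.24. The groups of these genes did not overlap. RPL5, RPL6 and RPL7, the lowest in the Huh-7 knockout comparison, were among the 5 highest here. Both comparisons subtract the same Huh-7 wild-type libraries and so are not independent. A deviation of those libraries would move both values in the same direction. By TPM 33 genes were higher and 9 lower in HCC-LM3 without overlap, against 53.6% and 27.5% of all tested genes.

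**Figure D5:**
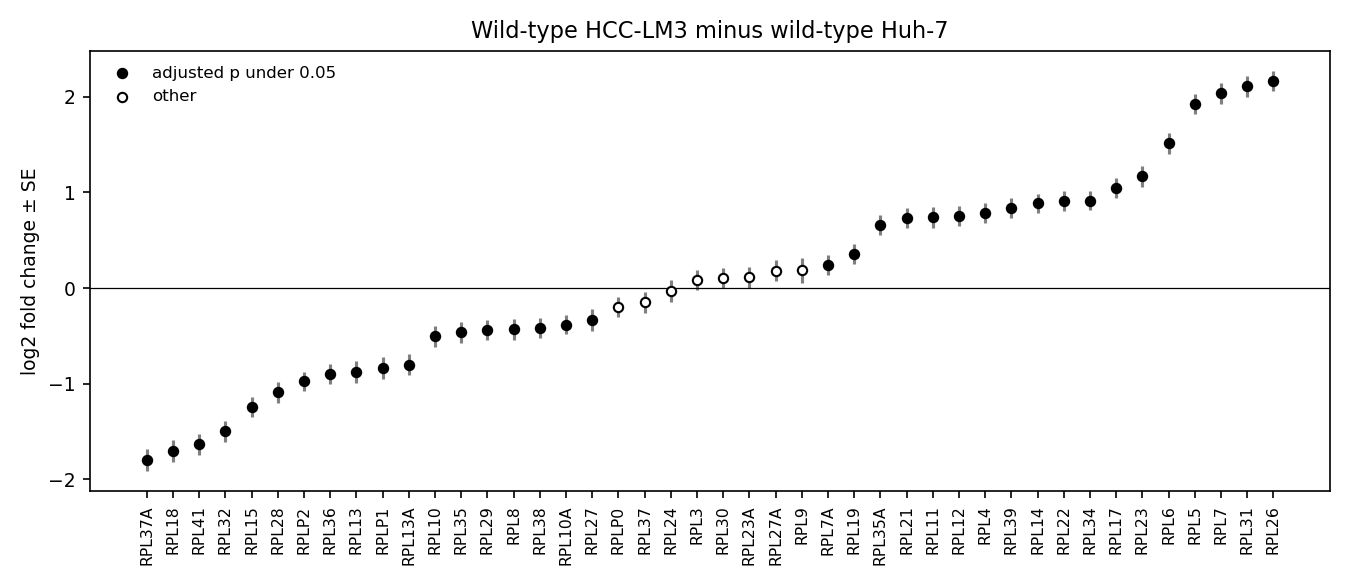
Log2 fold change of HCC-LM3 over Huh-7, both wild type, with its SE, for the 44 genes sorted by value. Filled points have an adjusted p under 0.05. Values run from −1.80 for RPL37A to 2.16 for RPL26, with RPL5, RPL6 and RPL7 at the upper end. The sign changed under library totals alone for RPL10A, RPL24, RPL27, RPL37 and RPLP0, and under the GC and length offsets for RPL8, RPL9, RPL23A, RPL29, RPL30, RPL35, RPL35A, RPL36 and RPLP0.

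The deposited files allow a further check, since counts divided by TPM give the transcript length that the authors' TPM used, up to a factor per library. Relative to the median of the 44 genes, this ratio differed by more than 0.2 on the log2 scale between Huh-7 knockout and wild type for 7 genes, and for 0 genes in HCC-LM3. It was 1.58-fold in RPL22, 1.52-fold in RPL4, 1.29-fold in RPL32, 1.21-fold in RPL35A, 1.19-fold in RPL7 and 1.15-fold in RPL31, and 0.740-fold in RPL5, in knockout over wild type. None of the 7 overlapped between groups. For these genes the change in counts and the change in TPM therefore differ by these factors beyond what the libraries share.

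Processed pseudogenes of large-subunit genes are near-identical copies, and how reads were shared between them is not given in the sources used here. The table held 694 rows named as such pseudogenes, of which 336 were above 0. Their counts made up 1.07% to 1.97% of the sum of genes and pseudogenes. The share was 71.1% to 76.7% for RPL9, 30.5% to 40.4% for RPL23A and 17.1% to 24.0% for RPL21, so the levels of those 3 genes are uncertain. RPL22 had 0.418% ± 0.151 in Huh-7 knockout and 5.93% ± 1.90 in Huh-7 wild type (SD, n = 3 each). Adding the pseudogene rows to their parent genes left the counts of called genes at 11 in HCC-LM3 and 43 in Huh-7.

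Other genes of the ribosome pathway were counted from lists. All 32 small-subunit protein genes rose in Huh-7 knockout (median 2.12), led by RPS29 at 2.74, and 3 of 32 rose in HCC-LM3 (median 0.15), namely RPS2, RPSA and RPS9. Over all tested genes 31.7% rose in Huh-7 and 14.0% in HCC-LM3, so the HCC-LM3 count was not above the background. On library totals, 30 small-subunit genes rose in Huh-7 and 2 fell, against 1993 and 10795 of the 16537 tested genes. Among the paralogues of large-subunit genes, 4 of 6 tested rose and 1 fell in Huh-7, while in HCC-LM3 edgeR called 0, with 3 lower at an unadjusted p under 0.05 and 0 called by DESeq2. By library totals 3 rose and 2 fell in Huh-7 and 0 rose and 3 fell in HCC-LM3, where with the offsets 1 rose and 0 fell. Over all tested genes, totals gave 1199 higher and 3423 lower in HCC-LM3. RPL39L, RPL22L1 and RPL26L1, which resemble RPL39, RPL22 and RPL26, rose by 1.70, 1.81 and 1.495 in Huh-7 on the log2 scale. RPL7L1, related to RPL7, fell by 1.34, with 15.98 ± 2.74 CPM in Huh-7 knockout and 40.6 ± 2.96 in wild type (SD, n = 3), whereas with the offsets for GC content and length all 6 paralogues rose.

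Of 53 assembly factors of the 60S subunit, 13 rose and 36 fell in Huh-7 (median −1.09), and 4 rose and 21 fell in HCC-LM3 (median −0.24). The shares of all tested genes were 31.7% higher and 43.2% lower in Huh-7, and 14.0% higher and 12.9% lower in HCC-LM3. MDN1, the ATPase that strips factors from the maturing particle, had 8.59 ± 0.105 CPM in Huh-7 knockout and 80.7 ± 7.89 in wild type, a log2 fold change of −3.23. GNL2, a nucleolar GTPase, changed by −2.81. NMD3, the export adaptor of the 60S subunit, changed by −0.67 in HCC-LM3. By library totals 4 rose and 47 fell in Huh-7, and with the offsets 20 rose and 23 fell, while in HCC-LM3 the offsets left 1 that rose and 10 that fell. Over all 16537 tested genes, library totals gave 1993 higher and 10795 lower in Huh-7.

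Of 17 other TOP mRNAs, 9 rose and 6 fell in Huh-7 (median 0.38), and 5 rose and 10 fell by library totals. With TMM, 31.7% of all tested genes rose in Huh-7 and 43.2% fell, so the 6 that fell were not above the background. By library totals 1993 of the 16537 tested genes rose in Huh-7 and 10795 fell, so the 10 were not above that background either. PABPC1, the cytoplasmic poly(A)-binding protein, changed by −2.58, with 34.6 ± 2.05 CPM in Huh-7 knockout and 207 ± 16.8 in wild type (SD, n = 3). Of 9 regulators of TOP mRNAs, 1 rose and 8 fell in Huh-7, and the same counts held with totals and with offsets. MTOR changed by −2.82, LARP4 by −2.77 and LARP1 by −2.74. In HCC-LM3 2 of the 9 rose and 3 fell, against 14.0% and 12.9% of all tested genes. Of 49 mitochondrial large-subunit genes, 39 rose and 6 fell in Huh-7 (median 1.49), led by MRPL41 at 2.36, while 4 rose and 10 fell in HCC-LM3 (median −0.04), where 14.0% of all tested genes rose and 12.9% fell. By library totals 30 rose and 12 fell in Huh-7 (median 0.38), and 3 rose and 22 fell in HCC-LM3. Over all tested genes, totals gave 1199 higher and 3423 lower in HCC-LM3.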

How the data were processed

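The 12 libraries, 3 in each of 4 groups, were grouped by their labels, and the labels' protocols give TRIzol extraction of total RNA. The authors deposited expected counts for each gene and library, as the file headers show, and between 7.49% and 13.3% of them per library are fractional. The authors also deposited TPM, which divides by gene length. Mouse builds (mm8, mm9) and Bowtie 0.12.2 appear in the submitters' processing notes, although the gene identifiers are human. No source used here states the counting tool, strand setting or human build, so reads of near-identical or overlapping genes may have been divided in an unknown way.

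Expected counts were rounded and library totals ranged from 17495280 to 26415554. edgeR 4.0.16 (R 4.3.3) fitted group means over all 12 libraries after filterByExpr and TMM scaling, with robust dispersion and 8 residual degrees of freedom, and p-values were adjusted over 16537 genes. The scripts were tested on simulated data with 200 changed genes and a spread between replicates set in advance. Simulated log2 changes of 0.5 were called in 26.1% of cases for HCC-LM3 and 17.8% for Huh-7. For changes of 1.0 the shares were 100.0% and 95.5%. Levels relative to the 44 genes add 1 to each CPM before the log. Alternatives were DESeq2 1.42.0 (size factors, Wald test), library totals, other filters, separate fits per line, a replicate block, offsets for GC content and length (medians over GENCODE 29 protein-coding transcripts, splines with 5 degrees of freedom), added pseudogene rows, an adjusted p under 0.01 and leaving out each library. Running them on relative levels, medians and gene lists was chosen after seeing the data. The 44 genes and the lists were chosen with earlier results of these data known. Named genes are METTL5, members by role, the 5 highest and 5 lowest per comparison, and up to 4 called genes per list, of which some are printed. Some listed genes are not reported here.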

Additional observations from a re-analysis of the deposited data

Results flagged for a closer look

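The effect of the knockout differed between the lines for 43 of the 44 large-subunit genes, by the test of the difference itself (HCC-LM3 effect minus Huh-7 effect, edgeR's quasi-likelihood test). The strongest differences were −2.46 for RPL35A, −2.41 for RPL39, −2.41 for RPL35, −2.33 for RPL41 and −2.26 for RPL37 on the log2 scale. The weakest that passed were −1.04 for RPL17, −0.90 for RPL4, −0.40 for RPL7 and −0.40 for RPL6. Scaled by library totals the values of RPL4, RPL6 and RPL7 turned positive, as did that of RPL5, which did not pass with TMM.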

How the results depend on the processing

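The numbers of called genes kept within 1.5 times in all comparisons and alternatives except the following. In HCC-LM3, 6 genes rose with library totals alone, 6 with each line fitted alone and 4 at an adjusted p under 0.01, against 11, and leaving out 1 library gave 2 to 28. Scaled by library totals 5 fell in HCC-LM3 and 3 in Huh-7, against 0, 3 of the differences between the effects were positive, against 0, and 11 genes were lower in wild-type HCC-LM3, against 18. The cause was not tested. Leaving out 1 library gave 41 to 44 risen genes in Huh-7. The labels name no pairing of samples. Deviations of same-numbered libraries had no common sign, with r of −0.088, 0.232 and −0.382 for HCC-LM3, and −0.005, −0.037 and 0.094 for Huh-7. With 3 libraries a group these values cannot exclude a pairing. With the replicate block 8 genes rose in HCC-LM3 and 43 in Huh-7, and the wild-type line difference could not be fitted. By library totals the Huh-7 values became −1.001 for RPL5, −0.79 for RPL6, −0.81 for RPL7 and −0.11 for RPL17, the differences between effects became 0.064 for RPL4, 0.87 for RPL5, 0.56 for RPL6 and 0.56 for RPL7, and the wild-type line values became 0.034 for RPL10A, 0.38 for RPL24, 0.082 for RPL27, 0.27 for RPL37 and 0.21 for RPLP0. With offsets the wild-type line values became 0.22 for RPL8, −0.42 for RPL9, −0.21 for RPL23A, 0.15 for RPL29, −0.27 for RPL30, 0.58 for RPL35, −0.039 for RPL35A, 0.17 for RPL36 and 0.014 for RPLP0. Also with offsets, of the 44 relative levels 10 whose groups had not overlapped changed sign, 25 others moved by more than the replicate spread and 9 moved by less in HCC-LM3. The Huh-7 numbers were 10, 31 and 3. Those that changed sign in HCC-LM3 became 0.019 for RPL7, −0.031 for RPL8, −0.028 for RPL19, 0.09 for RPL21, 0.11 for RPL30, 0.10 for RPL31, 0.17 for RPL35A, −0.14 for RPL36, 0.19 for RPL37 and 0.053 for RPL39, and in Huh-7 −0.12 for RPL10, −0.29 for RPL13, −0.18 for RPL13A, −0.48 for RPL18, 0.42 for RPL21, 0.56 for RPL26, −0.36 for RPL29, −0.26 for RPL35, −0.55 for RPL36 and −0.064 for RPLP1. The HCC-LM3 log2 fold changes had SEs of 0.10 to 0.13, so differences of that size were not detectable with 3 libraries a group. Larger ones could be missed too, as RPL18 at 0.28 was not called in HCC-LM3 (adjusted p = 0.0674, edgeR).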
